A study of Mus musculus with 6 samples.

Results

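Smooth muscle cells contract by sliding actin over myosin, and the genes described here encode that machinery and the general actin cytoskeleton of any adherent cell. The set holds 36 genes chosen by name, and all 36 had a row among the 23197 genes of the deposited count table. RNA was sequenced from mouse primary vascular smooth muscle cells (VSMCs), the contractile cells of the artery wall, bought from a commercial supplier. The siArid3a group was 3 libraries from cells transfected with siRNA against Arid3a, a DNA-binding factor with an AT-rich interaction domain, and the control group was 3 libraries from cells labelled as negative control. The same protocol stands with all 6 libraries, a transfection followed by 24 h of incubation. Whether siRNA libraries #1 to #3 carry different siRNAs or repeats of the same siRNA is not stated. No separate cultures are named either, so p-values reflect only how these 6 samples vary, and that variation may be technical. Angiotensin II appears in the growth protocol of these cells, with no word on whether the sequenced cells had it.

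The genes fall into roles. Actins form the thin filament, and tropomyosins, calponins, caldesmon and transgelins bind along it. Myosin heavy and light chains form the motor, which myosin light chain kinase switches on. Filamin, alpha-actinin, talin, vinculin and zyxin crosslink filaments or tie them to adhesions. Serum response factor (Srf) binds CArG boxes in the promoters of many of these genes, and its partner myocardin (Myocd) directs it to smooth muscle genes. Cells that leave the contractile state in culture are known to lose the late markers, such as smooth muscle myosin heavy chain, while general cytoskeleton genes stay high. The genes are described in 4 classes, namely 7 late smooth muscle markers, 9 early and broad smooth muscle genes, 17 general actin cytoskeleton genes and 3 transcription factors.

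Library totals were 17029735 to 22799935 gene counts. The targeted gene went against its label. Arid3a had 380, 367 and 376 reads in siArid3a libraries 1, 2 and 3, and 375, 370 and 391 reads in control libraries 1, 2 and 3. The groups overlapped, with a log2 fold change of −0.03 (SE 0.13) and an edgeR adjusted p of 0.943, so the differences below belong to libraries that carry the siArid3a label and not to a measured loss of Arid3a. Of the markers used to check the cell type, Acta2 was high at 492 to 647 CPM (counts scaled to a common library total) in siArid3a libraries and 485 to 592 CPM in control libraries, while Myh11, which defines mature smooth muscle, was at 0.0525 to 0.479 CPM in siArid3a libraries and 0.104 to 0.362 CPM in control libraries. Cnn1 and Tagln averaged 30.2 and 1.34 CPM over the 6 libraries. These 4 smooth muscle markers summed to 520.1 to 685.4 CPM in siArid3a libraries and 513.5 to 625.5 CPM in control libraries, mostly from Acta2. Fibroblast markers summed to 1420 to 1764 CPM in siArid3a libraries and 1572 to 1874 CPM in control libraries over 7 genes, mostly from Col1a1 and Dcn. Thy1 and Pdgfra averaged 138.9 and 73.61 CPM over the 6 libraries. The rest of this list was low, with Lum at a mean of 1.647 CPM. Pi16 lay below Lum in every library, and Dpt was under 1 CPM in every library. Dcn did not overlap between the groups, with 312 to 422 CPM in siArid3a libraries against 448 to 596 CPM in control libraries (edgeR adjusted p = 0.114), and Col1a1 did. The pericyte sum, over 6 genes, was 152 to 199 CPM in siArid3a libraries against 178 to 230 CPM in control libraries. It came mostly from Pdgfrb (mean 148.5 CPM), with Higd1b, Kcnj8 and Abcc9 under 1 CPM in every library. Mesothelial and epithelial markers summed to 127 to 145 CPM in siArid3a libraries against 153 to 174 CPM in control libraries over 7 genes, mostly from Msln and Krt19. Macrophage markers summed to 41.7 to 57.3 CPM in siArid3a libraries against 60.8 to 72.7 CPM in control libraries over 6 genes, mostly from Cd14 (mean 47.1 CPM). Cd14 and Csf1r (mean 2.07 CPM) were lower in siArid3a libraries without overlap, while Cd68 and Lyz2 overlapped between the groups. The macrophage and the mesothelial and epithelial sums did not overlap between the groups, both being lower in siArid3a libraries, although Ptprc, Adgre1, Krt8, Krt18 and Epcam were each under 1 CPM. Of all genes tested, 10.4% had groups without overlap with siArid3a lower. Endothelial and striated muscle markers summed to at most 30.1 and 8.24 CPM in any library. Most of this came from Vwf (mean 21.1 CPM) and Tnnt2 (mean 5.75 CPM), while Pecam1, Cdh5 and Tie1 were each under 1 CPM. The part of these other markers in the results below was not tested. In bulk RNA, fewer cells of a type and less RNA per cell cannot be told apart.

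To compare genes with each other, CPM was divided by the exonic length of the gene in kilobases (CPM per kb). The sources used here do not say how reads in bases shared by overlapping genes were counted, so the share of a gene's exonic bases outside every other annotated gene is given where it is low. It was 32.1% for Tagln, 30.3% for Tpm4, 58.8% for Zyx and 7.73% for Mrtfb, and these levels are uncertain. It was 0% for Srf, whose overlapping gene Gm26904 has no row in the table. Counted against genes with a row alone, the share was 100% for Srf and Smtn and 94.6% for Tagln, while it was 36.4% for Tpm4, 58.8% for Zyx and 7.73% for Mrtfb. The other members under 90% were Vcl (74.5%), Smtn (74.8%), Mylk (75.3%), Cnn3 (82.3%) and Sorbs3 (84.5%). Counts of closely related genes, such as the actins, can also be split between copies, so their levels are uncertain too.

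The median level of the late smooth muscle markers lay far below that of the general actin cytoskeleton genes in every library. That late median was the value of Lmod1 each time, while Actg2 lay above the general median in every library. The median over the 7 late markers was 1.28, 1.69 and 1.29 CPM per kb in siArid3a libraries 1, 2 and 3, and 1.11, 1.33 and 0.967 CPM per kb in control libraries 1, 2 and 3. For the 17 general genes the median was 61.7, 69.1 and 76.5 CPM per kb in siArid3a libraries 1, 2 and 3, and 59.3, 60.9 and 65.1 CPM per kb in control libraries 1, 2 and 3. On the log2(level + 0.1) scale the medians differed by 38.7 to 55.1 times in siArid3a libraries and by 42.7 to 61.1 times in control libraries, so the gap overlapped between the groups. It is a description of these genes, with no test, since genes are not replicates. The mean log2 difference over the 6 libraries, late minus general, was −5.59 (SD 0.244). It became −2.28 when the early and broad genes were added to the late markers and −7.10 when genes under 90% by the overlap measure above were left out.

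**Figure D1:**
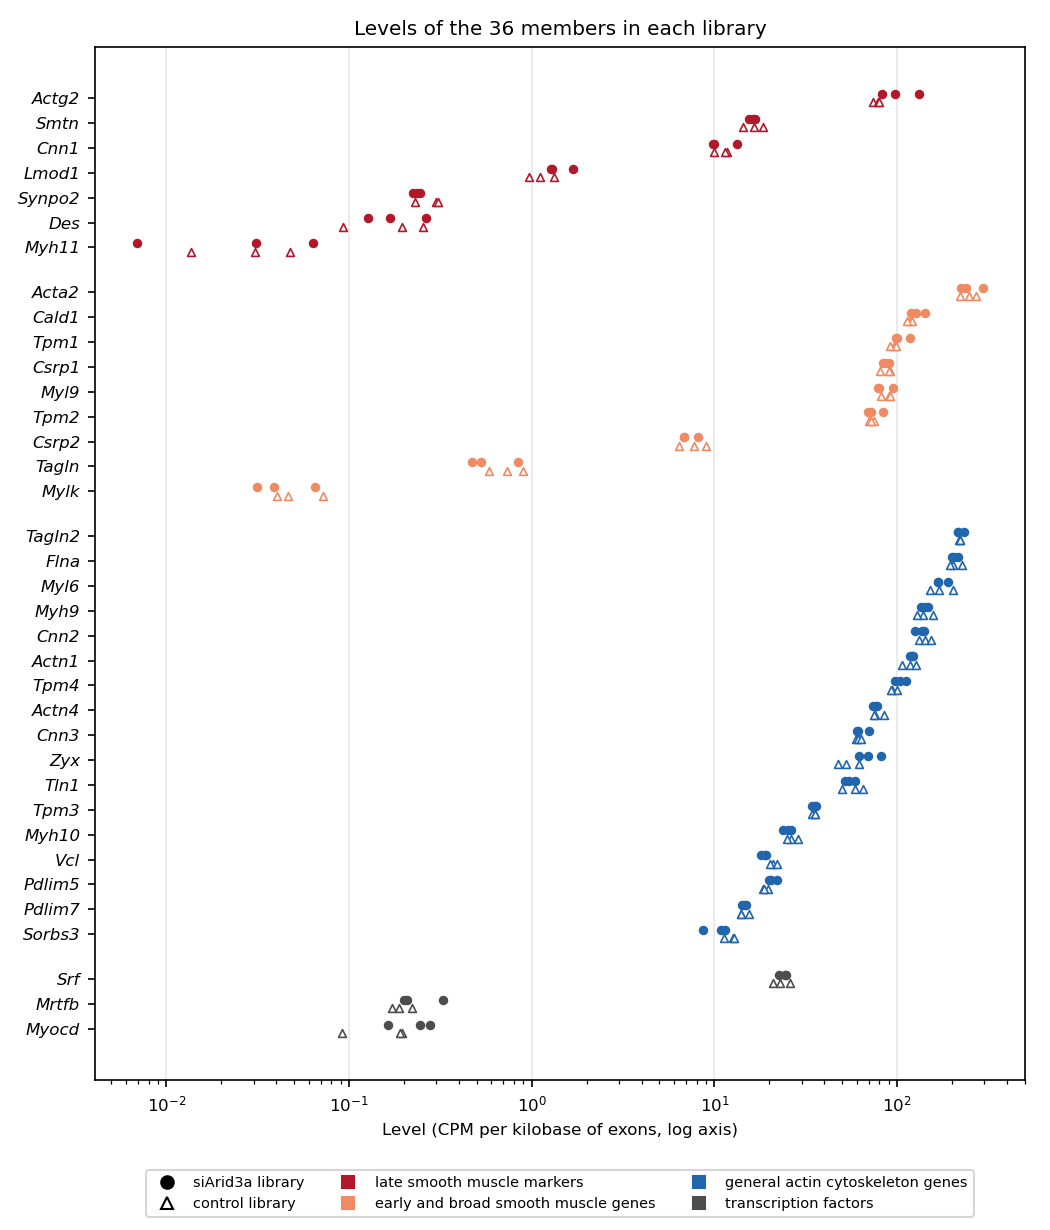
Level of each of the 36 genes in each library, as CPM per kilobase of exons on a log axis, by class. Filled circles are siArid3a libraries and open triangles control libraries. Late markers run from Myh11 at a mean of 0.0321 to Actg2 at 90.5, while general genes run from Sorbs3 at 11.3 to Tagln2 at 220.2.

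The late markers themselves spread widely. Myh11, the smooth muscle myosin heavy chain, had 11, 4 and 1 reads in siArid3a libraries 1, 2 and 3, and 2, 8 and 4 reads in control libraries 1, 2 and 3, or 30 reads in all, and was too low to test. Des, the intermediate filament protein desmin, had 0.128, 0.265 and 0.168 CPM per kb in siArid3a libraries and 0.194, 0.253 and 0.0925 CPM per kb in control libraries. Both genes were near the bottom of the set, and their groups overlapped. Synpo2, an actin-bundling partner of alpha-actinin, averaged 0.257 CPM per kb over the 6 libraries, and Lmod1, a leiomodin that nucleates actin filaments, averaged 1.28. The other 3 late markers were higher. Cnn1, the calponin of differentiated smooth muscle, had 9.85, 9.89 and 13.3 CPM per kb in siArid3a libraries and 9.90, 11.7 and 11.5 CPM per kb in control libraries. Smtn, smoothelin, had 16.3, 16.7 and 15.5 CPM per kb in siArid3a libraries and 16.4, 14.4 and 18.4 CPM per kb in control libraries. Neither gene separated the groups. Actg2, the gamma smooth muscle actin of visceral muscle, had 82.8, 97.2 and 131.5 CPM per kb in siArid3a libraries and 74.1, 78.2 and 79.1 CPM per kb in control libraries. It was the only late marker among the 1000 highest of the 23134 genes with a length, and its siArid3a values lay above all 3 control values.

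Among the early and broad smooth muscle genes, 6 of 9 were among the 1000 highest genes by level. Acta2, the alpha actin that is the usual smooth muscle marker, had the highest level of the whole set, with 223.9, 237.3 and 294.8 CPM per kb in siArid3a libraries and 220.7, 269.4 and 247.8 CPM per kb in control libraries. It ranked 166 of 23134. The groups overlapped, with siArid3a library 3 highest. Cald1, caldesmon, had 126.3, 119.6 and 142.3 CPM per kb in siArid3a libraries and 117.5, 120.5 and 113.6 CPM per kb in control libraries. Tpm1, a tropomyosin, had 100.3, 98.4 and 118.3 CPM per kb in siArid3a libraries and 96.3, 98.8 and 90.9 CPM per kb in control libraries. In all 3 genes siArid3a library 3 was the highest of the 6 libraries, and the other siArid3a libraries lay within or near the control range. Csrp1, a LIM-domain partner of alpha-actinin, Myl9, a regulatory light chain, and Tpm2, another tropomyosin, averaged 86.8, 86.1 and 73.6 CPM per kb over the 6 libraries. Csrp2, a LIM protein of early smooth muscle, averaged 7.45. The remaining pair was near the floor. Tagln, transgelin, had 24, 16 and 32 reads in siArid3a libraries and 34, 32 and 20 reads in control libraries, a mean of 0.674 CPM per kb. Mylk, myosin light chain kinase, had 10, 6 and 14 reads in siArid3a libraries and 10, 10 and 14 reads in control libraries, a mean of 0.0489 CPM per kb. Of the exonic bases of Tagln and Mylk, 32.1% and 75.3% lay outside other genes.

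No general actin cytoskeleton gene was under 1 CPM per kb, and 11 of 17 were among the 1000 highest of 23134 genes. Tagln2, the broadly expressed transgelin, had 215.4, 215.3 and 231.2 CPM per kb in siArid3a libraries and 221.3, 216.9 and 221.0 CPM per kb in control libraries. Flna, filamin A, which crosslinks actin into networks, had 200.6, 216.0 and 204.3 CPM per kb in siArid3a libraries and 202.0, 195.1 and 225.9 CPM per kb in control libraries. Myl6, the essential myosin light chain, had 166.9, 167.0 and 189.3 CPM per kb in siArid3a libraries and 170.3, 201.1 and 151.4 CPM per kb in control libraries. Tagln2 was steady across libraries, while control libraries held both the highest and the lowest Myl6 value. The alpha-actinins Actn1 and Actn4 averaged 118.6 and 77.3 CPM per kb over the 6 libraries. The adhesion proteins Zyx (zyxin), Tln1 (talin) and Vcl (vinculin) averaged 62.3, 56.5 and 19.8. The LIM and PDZ proteins Pdlim5 and Pdlim7 averaged 19.8 and 14.6, and Sorbs3, the vinculin-binding protein vinexin, 11.3. In the order of all 36 genes by level, the ranges over the 6 libraries were separate for 8 of the 35 pairs of neighbours. They overlapped for the rest, so ranges alone do not rank most neighbours. Some overlapping pairs kept their order in all 6 libraries, such as Actn1 over Tpm1 and Srf over Vcl. Others did not, such as Tpm1 over Tpm4 (3 libraries).

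Among myosin heavy chains, calponins and transgelins, general members made up most of the level of the family. Shares of the summed CPM per kb of a family are free of library scaling. Myh9, nonmuscle myosin IIA, had 135.7, 146.7 and 141.3 CPM per kb in siArid3a libraries and 139.0, 128.6 and 157.5 CPM per kb in control libraries. Myh10, nonmuscle myosin IIB, had 25.2, 26.2 and 23.8 CPM per kb in siArid3a libraries and 26.3, 24.8 and 28.8 CPM per kb in control libraries. Both were highest in control library 3. Myh9 took 84.9% ± 0.629 of the family in siArid3a libraries and 84.1% ± 0.363 in control libraries (SD, n = 3 each), and Myh11 took 0.0204% ± 0.0176 in siArid3a libraries and 0.0186% ± 0.0116 in control libraries.

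Among calponins, Cnn2, the calponin of many cell types, had 125.0, 136.1 and 139.7 CPM per kb in siArid3a libraries and 131.0, 141.6 and 152.6 CPM per kb in control libraries. Cnn3, the acidic calponin, had 60.7, 60.6 and 70.0 CPM per kb in siArid3a libraries and 59.3, 60.9 and 63.3 CPM per kb in control libraries. The groups overlapped for both. Cnn1 took 5.26% ± 0.614 of the family in siArid3a libraries and 5.16% ± 0.279 in control libraries (SD, n = 3 each), a difference within the spread between replicates. Tagln took 0.275% ± 0.0781 of the transgelin level in siArid3a libraries and 0.333% ± 0.0689 in control libraries, the rest being Tagln2. This share is uncertain, since 32.1% of the exonic bases of Tagln lay outside other genes, against 100% for Tagln2. Counted against genes with a row alone, that part was 94.6% for Tagln.

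Tropomyosins were more even. Tpm2, a muscle tropomyosin, had 69.3, 72.1 and 84.0 CPM per kb in siArid3a libraries and 70.3, 74.3 and 71.6 CPM per kb in control libraries. Tpm3, a general tropomyosin, had 35.5, 34.3 and 36.1 CPM per kb in siArid3a libraries and 34.0, 35.4 and 35.4 CPM per kb in control libraries. Tpm4, another general tropomyosin, had 103.2, 97.2 and 112.4 CPM per kb in siArid3a libraries and 93.5, 99.9 and 92.5 CPM per kb in control libraries. All 3 overlapped between the groups. Tpm1 took 32.9% ± 0.682 of the family in siArid3a libraries and 32.0% ± 0.715 in control libraries. Tpm4 took 32.6% ± 0.785 in siArid3a libraries and 32.0% ± 0.331 in control libraries, a share like that of Tpm1.

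The smooth muscle actins were compared in the same way. Acta2 made up 73.0%, 70.9% and 69.2% of the summed Acta2 and Actg2 level in siArid3a libraries 1, 2 and 3. In control libraries 1, 2 and 3 it made up 74.9%, 77.5% and 75.8%. The groups did not overlap in this share, which was lower in every siArid3a library. It was singled out after its values were seen and has no test. Groups without overlap were found for 9.66% of all genes tested with siArid3a higher and 10.4% with siArid3a lower. No such background was computed for shares. The log2 fold change was 0.43 for Actg2 and 0.03 for Acta2.

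**Figure D2:**
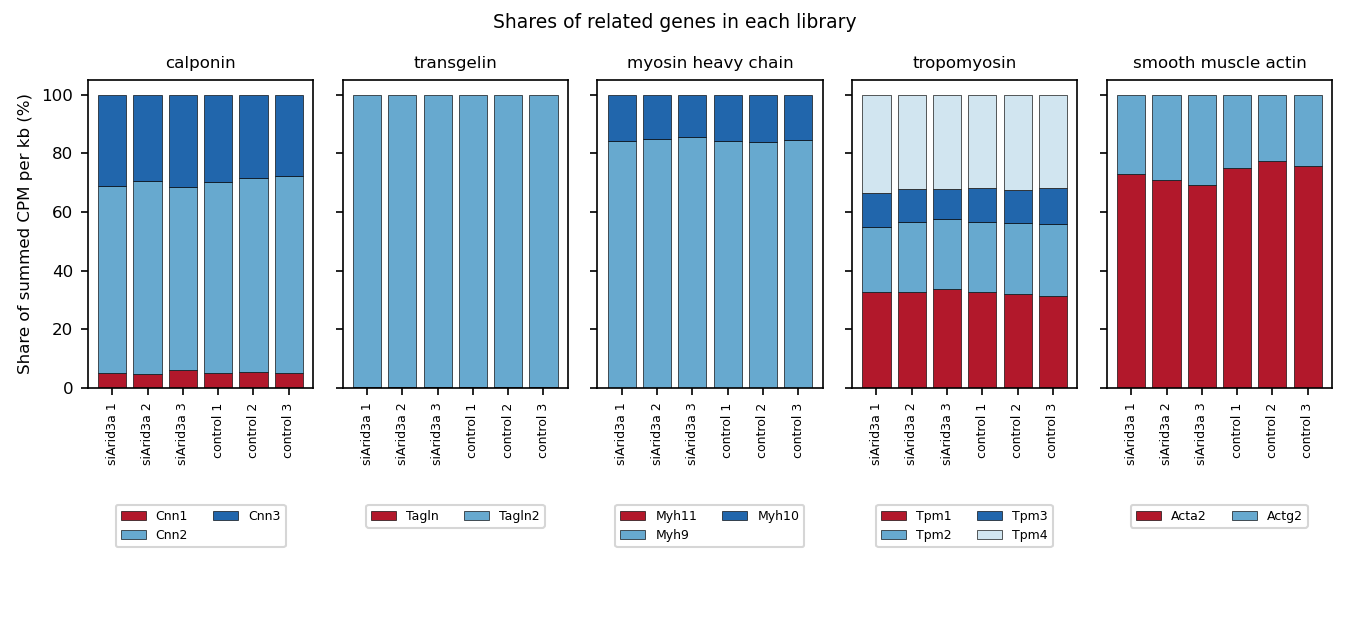
Share of each related gene in the summed CPM per kb of its family (percent), as stacked bars for siArid3a libraries 1 to 3 and then control libraries 1 to 3. Myh9, Cnn2 and Tagln2 make up most of their families in every library, the Tagln share being uncertain because of its overlap with other genes. The Acta2 share is 69.2% to 73.0% in siArid3a libraries against 74.9% to 77.5% in control libraries.

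Transcription factors were led by Srf. Srf had 22.5, 24.6 and 24.3 CPM per kb in siArid3a libraries and 23.0, 20.9 and 25.9 CPM per kb in control libraries. Myocd, the smooth muscle coactivator of Srf, had 36, 18 and 34 reads in siArid3a libraries and 24, 13 and 21 reads in control libraries. Mrtfb, a myocardin-related coactivator that responds to free actin, had 43, 50 and 34 reads in siArid3a libraries and 38, 34 and 29 reads in control libraries. Myocd and Mrtfb had 146 and 228 reads over the 6 libraries, and the Mrtfb count is uncertain because of the overlap given above. Mrtfa, another myocardin-related coactivator outside the 36 genes, had 12.5, 14.3 and 12.7 CPM per kb in siArid3a libraries and 12.9, 10.0 and 13.8 CPM per kb in control libraries, below Srf in every library. None of these 4 genes separated the groups.

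CArG boxes, the sequences bound by Srf, were looked for in the RefSeq promoters of the members (GRCm38.p6, 250 bases before to 50 bases after the start). Of the 36 members 30 had a promoter in that set, in 37 windows. Myh11, Actg2, Tagln, Csrp2, Myocd and Sorbs3 had none and were not searched, so nothing is known here of their boxes. The consensus form, CC and GG around a core of 6 A or T bases, reads the same on both strands, so both were searched. It was present in 5 of 37 member windows (13.5%), those of Srf, Myl9, Cnn2, Vcl and a second window of Myl6, against 1.63% of all 32851 windows. With 1 G or C allowed in the core, 8 member windows (21.6%) and 9.98% of all windows had a match, and Acta2 and Tpm3 joined. A match is a description and not a bound site. The promoters below show where the boxes lie in the factor itself, in the highest smooth muscle gene and in 3 other members. Capitals mark the CArG boxes, and each sequence reads 5′ to 3′ on the strand of the gene.
Srf (chr17:46556113-46556412, minus strand): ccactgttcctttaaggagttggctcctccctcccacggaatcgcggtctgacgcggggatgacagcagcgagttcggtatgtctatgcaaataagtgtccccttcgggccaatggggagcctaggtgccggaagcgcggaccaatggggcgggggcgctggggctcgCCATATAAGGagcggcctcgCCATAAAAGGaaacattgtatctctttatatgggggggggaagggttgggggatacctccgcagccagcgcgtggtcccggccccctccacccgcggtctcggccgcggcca
Acta2 (chr19:34255324-34255623, minus strand): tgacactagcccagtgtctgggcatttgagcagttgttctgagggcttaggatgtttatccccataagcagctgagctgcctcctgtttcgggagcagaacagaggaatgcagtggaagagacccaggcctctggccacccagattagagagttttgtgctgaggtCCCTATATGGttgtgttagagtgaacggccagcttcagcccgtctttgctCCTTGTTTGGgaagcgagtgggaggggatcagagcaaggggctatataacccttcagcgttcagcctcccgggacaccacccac
Myl9 (chr2:156775214-156775513, plus strand): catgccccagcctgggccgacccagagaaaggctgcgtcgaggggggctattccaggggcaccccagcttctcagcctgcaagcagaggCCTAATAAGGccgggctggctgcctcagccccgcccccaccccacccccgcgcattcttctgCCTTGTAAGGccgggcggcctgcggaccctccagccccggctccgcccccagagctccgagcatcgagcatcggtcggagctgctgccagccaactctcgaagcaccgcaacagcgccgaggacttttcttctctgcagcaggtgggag
Vcl (chr14:20929148-20929447, plus strand): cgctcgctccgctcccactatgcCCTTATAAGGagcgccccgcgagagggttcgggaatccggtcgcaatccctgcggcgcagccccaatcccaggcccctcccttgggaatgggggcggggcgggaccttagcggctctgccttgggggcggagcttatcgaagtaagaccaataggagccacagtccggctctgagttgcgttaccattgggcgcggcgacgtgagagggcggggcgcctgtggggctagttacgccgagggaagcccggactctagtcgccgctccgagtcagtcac
Cnn2 (chr10:79988350-79988649, plus strand): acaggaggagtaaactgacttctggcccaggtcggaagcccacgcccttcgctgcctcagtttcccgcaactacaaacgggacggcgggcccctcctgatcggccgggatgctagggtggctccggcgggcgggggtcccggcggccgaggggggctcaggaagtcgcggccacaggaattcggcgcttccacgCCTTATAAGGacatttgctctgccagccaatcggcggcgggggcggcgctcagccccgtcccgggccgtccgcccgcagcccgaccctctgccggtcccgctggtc
In Srf the boxes began 82 and 62 bases before the start, both of the consensus form. The Acta2 boxes began 84 and 34 bases before the start and each held 1 G or C in the core. Myl9 had a consensus box 161 bases and another form 99 bases before the start, Cnn2 a consensus box at 56 bases and Vcl at 227 bases. The members with a consensus box did not share a direction between the groups: the log2 fold change was 0.03 for Srf, −0.05 for Myl9, −0.09 for Cnn2, 0.00 for Myl6 and −0.17 for Vcl, with edgeR adjusted p of 0.294 to 0.997.

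The comparison between the groups asked which transcripts of the contractile machinery differ when cells receive Arid3a siRNA. No member passed the edgeR test at an adjusted p under 0.05, and neither did any other gene. The background was 0 of 13234 genes tested (0%), with a smallest adjusted p of 0.0747. Of the 36 members 35 passed the filter on low counts, 18 with a log2 fold change above 0 and 17 below, and the median was 0.00, against −0.01 over all genes tested. Unadjusted p lay under 0.05 for 4 members of 35 (11.4%), against 1976 genes in all (14.9%). DESeq2 called 2 of 30 members with an adjusted p, Zyx and Actg2, both higher in siArid3a libraries, where the background was 225 of 11181 genes (2.01%). The log2 fold change lay within 0.2 of 0 for 26 of 35 members (74.3%) and 67.7% of all genes tested. By class, the median log2 fold change was −0.00 for 6 late markers, −0.00 for 9 early and broad genes, and 0.00 for 17 general genes, with 0 called by edgeR in each. The 3 transcription factors, with 0 called, had 0.03 (Srf), 0.33 (Mrtfb) and 0.55 (Myocd), and Mrtfb had 0.08 without siArid3a library 2.

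**Figure D3:**
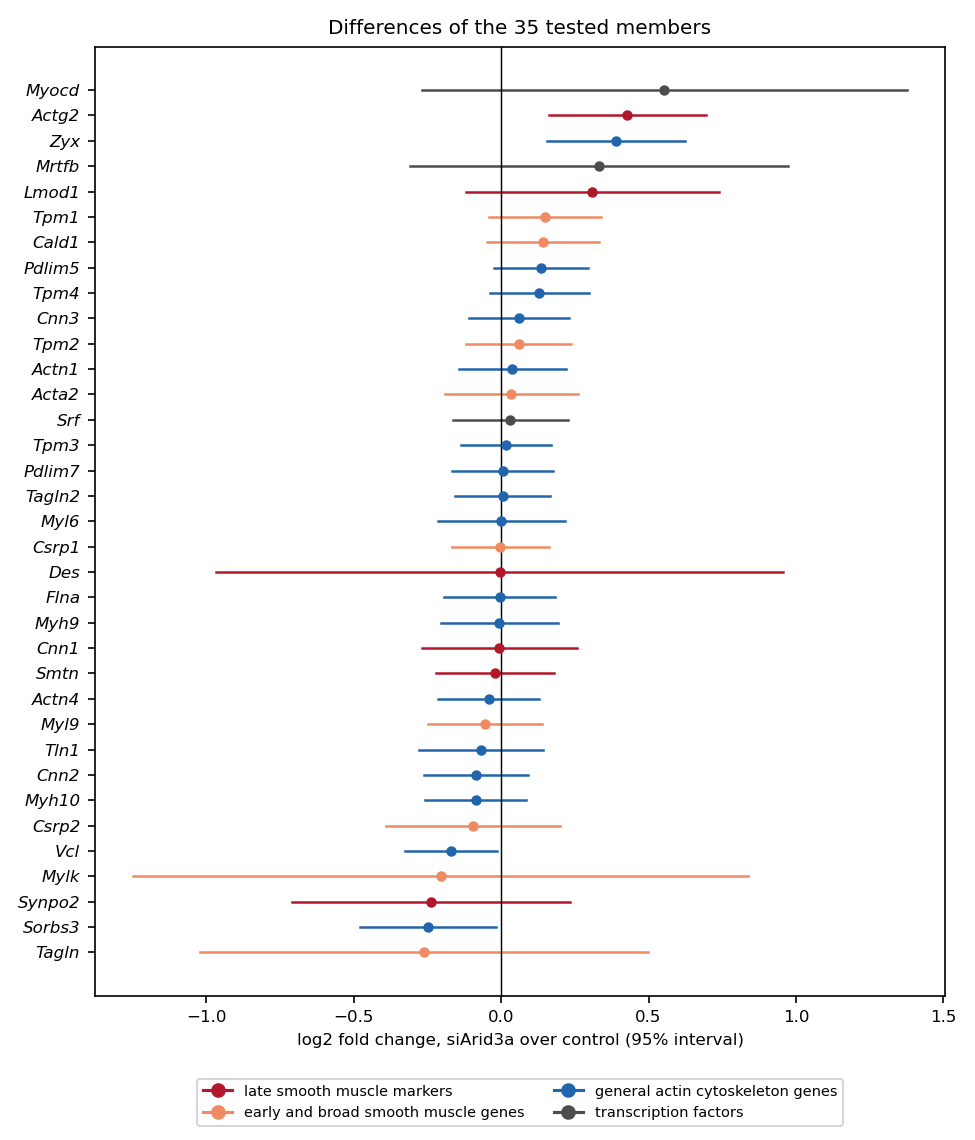
Log2 fold change of siArid3a over control for the 35 tested genes, with 95% intervals from the edgeR fit, ordered from high to low and coloured by class. Intervals are wide for low genes such as Mylk, Des and Tagln, and only those of Actg2, Zyx, Vcl and Sorbs3 leave out 0, before adjustment for the number of genes.

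The 5 members with the smallest p were Zyx, Actg2, Vcl, Sorbs3 and Pdlim5, none of them past the edgeR threshold. Zyx (chr6:42349630-42360213, plus strand, mm10), which gathers at focal adhesions and stress fibres under tension, had 332.4, 372.5 and 437.9 CPM in siArid3a libraries 1, 2 and 3, and 282.7, 256.5 and 333.6 CPM in control libraries 1, 2 and 3. Library 1 of the siArid3a group lay just under control library 3, so the groups overlapped. The means were 381 ± 53.2 CPM in siArid3a libraries and 291 ± 39.2 CPM in control libraries (SD, n = 3 each), with a log2 fold change of 0.39 (SE 0.11, edgeR adjusted p = 0.141, DESeq2 adjusted p = 0.0349). For Zyx, 58.8% of the exonic bases lay outside other genes. Leaving out control library 3 brought its edgeR adjusted p to 0.0375 (log2 fold change 0.50), and the other libraries left out in turn gave 0.119 to 0.577.

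Actg2 (chr6:83512905-83536265, minus strand) had 129.0, 151.4 and 204.7 CPM in siArid3a libraries and 115.3, 121.8 and 123.2 CPM in control libraries. All siArid3a values lay above all control values, with siArid3a library 3 the highest. Its log2 fold change came to 0.43 (SE 0.12, edgeR adjusted p = 0.149, DESeq2 adjusted p = 0.0496), and it was 0.22 without siArid3a library 3 (edgeR adjusted p = 0.577), the other libraries left out in turn giving adjusted p of 0.115 to 0.551. Without the filter on low counts, edgeR called both Zyx and Actg2 (adjusted p = 0.0013 and 0.000331), among 439 of 23197 genes. Their SEs were 0.0851 and 0.0866 in that fit, against 0.11 and 0.12 with the filter. Acta2 (chr19:34241090-34255590, minus strand), the related actin, had a log2 fold change of 0.03 (SE 0.11, edgeR adjusted p = 0.913), with a 95% interval of −0.19 to 0.26. The sign of Acta2 turned without siArid3a library 3 (−0.09) and without control library 1 (−0.04).

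Vcl (chr14:20929398-21033676, plus strand), which links talin to actin at adhesions, had 156.9, 154.3 and 147.6 CPM in siArid3a libraries and 171.0, 165.4 and 179.5 CPM in control libraries. All siArid3a values were below all control values. The difference was small, a log2 fold change of −0.17 (SE 0.07, edgeR adjusted p = 0.294). Sorbs3 (chr14:70180468-70211989, minus strand) had 39.2, 41.5 and 31.5 CPM in siArid3a libraries and 46.0, 40.7 and 46.5 CPM in control libraries, and the groups overlapped. The difference was −0.25 on the log2 scale (SE 0.11, edgeR adjusted p = 0.301), and −0.13 without siArid3a library 3. Pdlim5 (chr3:142239590-142395696, minus strand), a scaffold of the Z-line and stress fibres, had 177.5, 180.4 and 194.6 CPM in siArid3a libraries and 163.2, 174.2 and 165.6 CPM in control libraries. Its groups did not overlap, with siArid3a higher, at a log2 fold change of 0.14 (SE 0.07, edgeR adjusted p = 0.408). Groups without overlap were found for 2 of 35 members with siArid3a higher (5.71%), against 9.66% of all genes tested, and for 1 of 35 with siArid3a lower (2.86%), against 10.4%.

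**Figure D4:**
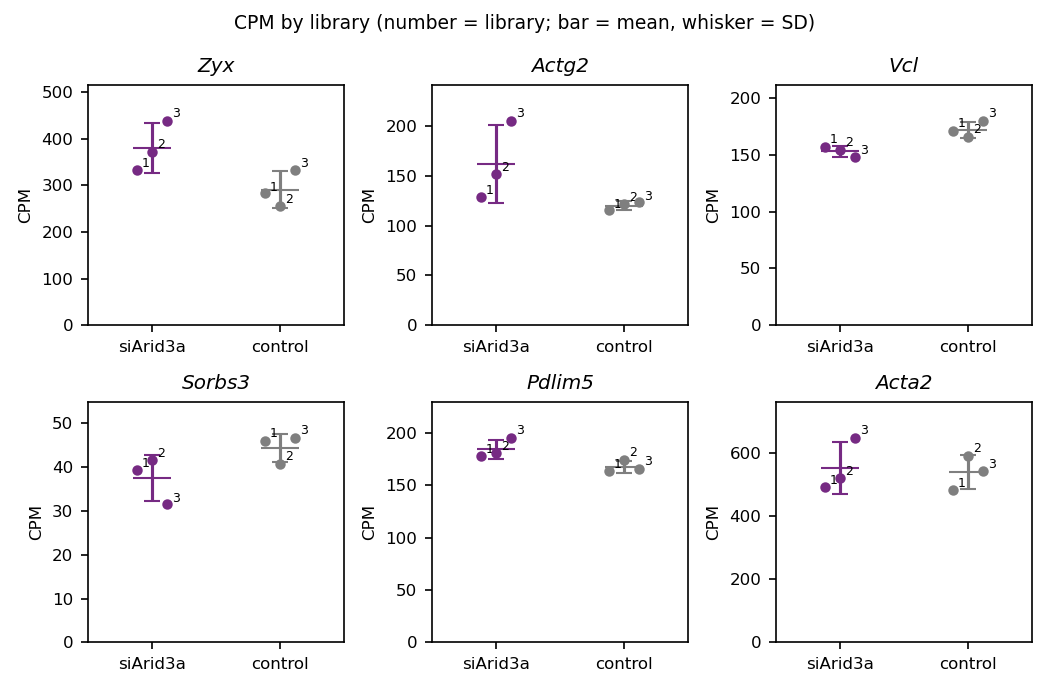
CPM of the 5 members with the smallest p and of Acta2, by group, with the axis from 0. Points are libraries with their numbers, bars the mean and whiskers the SD of 3 libraries. Library 3 of the siArid3a group is the highest of the 6 for Zyx, Actg2, Pdlim5 and Acta2 and the lowest for Vcl and Sorbs3.

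The most abundant members were close between the groups. Flna had 1885, 2030 and 1921 CPM in siArid3a libraries and 1899, 1834 and 2123 CPM in control libraries, a log2 fold change of −0.01 with a 95% interval of −0.19 to 0.18. Myh9 had 1754, 1896 and 1826 CPM in siArid3a libraries and 1798, 1663 and 2036 CPM in control libraries, a log2 fold change of −0.01 with an interval of −0.20 to 0.19. For both, control library 3 was the highest and control library 2 the lowest. Cnn1 had a log2 fold change of −0.01 with an interval of −0.27 to 0.26, and Smtn −0.02 with an interval of −0.22 to 0.18. Tagln2 and Tpm3, the steadiest across libraries, had 0.01 (SE 0.08) and 0.02 (SE 0.07). Cald1, Tpm1 and Tpm4 had 0.14 (SE 0.09), 0.15 (SE 0.09) and 0.13 (SE 0.08), with edgeR adjusted p of 0.449 to 0.467. Without siArid3a library 3 they had 0.07, 0.06 and 0.07. Low genes could not be judged closely at this depth. Myocd had a log2 fold change of 0.55 with an interval of −0.27 to 1.38, Tagln −0.26 with −1.02 to 0.50, and Mylk −0.20 with −1.25 to 0.84. With each library left out in turn, Myocd ranged from 0.26 to 0.74, Tagln from −0.55 to −0.10 and Mylk from −0.55 to 0.07.

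Deviations of the members varied with exonic length from library to library, within groups as well as between them. Over the 35 tested members, the slope of the log2 CPM deviation on log2 exonic length came to 0.029, 0.015 and −0.051 for siArid3a libraries 1, 2 and 3, and to 0.006, −0.068 and 0.068 for control libraries 1, 2 and 3. Over 13221 tested genes with a length the slopes ran from −0.013 to 0.013 in siArid3a libraries and from −0.030 to 0.025 in control libraries. Long members such as Flna, Tln1 and Myh9 were highest in control library 3, and short members such as Actg2, Acta2, Cnn1 and Myl9 were high in siArid3a library 3. Against the control mean, the median log2 deviation of the 17 members with transcripts over 3061 bases was 0.00 in siArid3a library 3, 0.12 in control library 3 and −0.10 in control library 2, while that of the 18 other members was 0.13 in siArid3a library 3. With each library's length trend removed, an alternative chosen after seeing the data, 0 members passed the edgeR test, and the log2 fold change was 0.47 for Actg2 and 0.41 for Zyx (adjusted p = 0.104 for each).

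**Figure D5:**
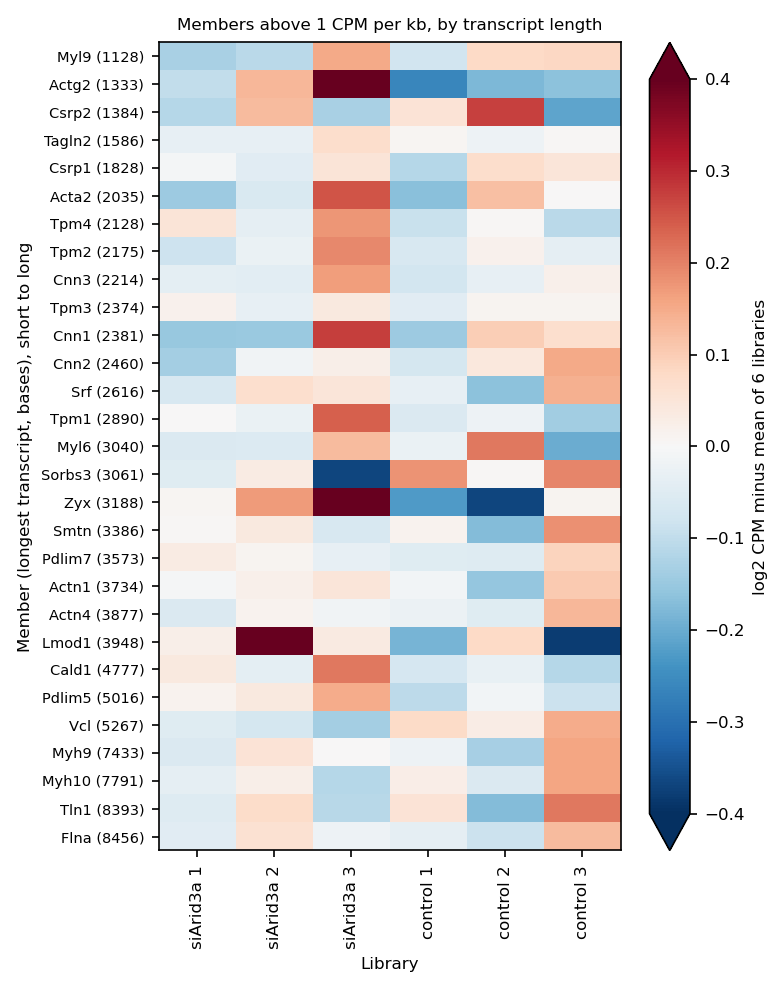
Log2 CPM of each member in each library minus its mean over the 6 libraries, for the 29 tested members above 1 CPM per kb, with the member whose longest transcript is shortest at the top and the one with the longest at the bottom. Red is higher and blue lower, with colour limits at −0.4 and 0.4. Members at the bottom are mostly red in control library 3, and many at the top are red in siArid3a library 3.

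Other genes linked to smooth muscle or actin were read from a list of 66, of which 61 had a row and 54 were tested. Not all are parts of the contractile machinery, such as Sncg, Gata6 and Foxo4. None passed the edgeR test over all genes (0 higher and 0 lower), and 6 had an unadjusted p under 0.05 (11.1%), against 14.9% of all genes tested. DESeq2 called 1 of 52 with an adjusted p, which was lower, against 2.01% of all genes. The median log2 fold change was 0.01. The gene called by DESeq2 was Sncg, gamma-synuclein, with 10.7, 10.4 and 11.2 CPM in siArid3a libraries and 15.5, 16.7 and 13.9 CPM in control libraries. Its groups did not overlap, at a log2 fold change of −0.51 (SE 0.13, edgeR adjusted p = 0.114, DESeq2 adjusted p = 0.0369). Pdlim2, a PDZ and LIM protein, had 28.4, 28.2 and 24.9 CPM in siArid3a libraries and 36.0, 34.0 and 32.0 CPM in control libraries (log2 fold change −0.32, edgeR adjusted p = 0.165). Flnc, the filamin of muscle, had 467.7, 509.8 and 486.3 CPM in siArid3a libraries and 387.2, 347.5 and 454.4 CPM in control libraries (log2 fold change 0.30, edgeR adjusted p = 0.174). Tead1, the DNA-binding partner of YAP, had 187.1, 172.6 and 180.4 CPM in siArid3a libraries and 161.2, 152.3 and 155.6 CPM in control libraries (log2 fold change 0.20, edgeR adjusted p = 0.212). In each of these 4 genes, picked for the smallest p, the groups did not overlap. Over the list, groups without overlap were found for 4 of 54 genes with siArid3a higher (7.41%), against 9.66% of all genes tested, and for 4 with siArid3a lower (7.41%), against 10.4%. The cytoplasmic actins were the highest of the list by level. Actb had 696.9, 710.7 and 778.6 CPM per kb in siArid3a libraries and 695.1, 682.1 and 744.1 CPM per kb in control libraries, and Actg1 had 520.2, 575.2 and 593.6 CPM per kb in siArid3a libraries and 528.2, 503.6 and 601.4 CPM per kb in control libraries. Both lay above Acta2 in all 6 libraries, and neither separated the groups (log2 fold change 0.04 and 0.05).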

How the data were processed

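PolyA RNA of mouse primary vascular smooth muscle cells was sequenced in 6 libraries, 3 per group, from 1 µg of total RNA, per the labels' protocols. The values deposited by the authors are raw read counts, whole numbers for each gene. STAR 2.7.3a, featureCounts and mm10 are named in the submitters' processing notes. The sources used here give no annotation, strand setting or filter. The deposited length, end minus start plus 1 in all 23197 rows, is a plain gene span, so exonic lengths and overlaps came from GENCODE M21 on GRCm38, which holds 23134 of the identifiers and the same start and end for 35 of the 36 members.

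Counts were filtered by filterByExpr, scaled by TMM and tested with edgeR 4.0.16 in R 4.3.3 (robust quasi-likelihood fit, group as the only term), adjusted by the Benjamini-Hochberg method over 13234 genes and called under 0.05. DESeq2 1.42.0 and limma-voom 3.58.1 were alternatives, with other scalings, filters, a replicate block and each library left out in turn. CPM is counts over the TMM-scaled total. Standard errors were taken as the size of the log2 difference divided by the root of the F statistic. Within groups, chi-square per degree of freedom between libraries was 5.72 to 20.2, so each pair differed by more than sampling noise. The fits were tested on simulated counts. Members, classes and lists were chosen with earlier results of these data known. Values in every library are given for Acta2, Tagln, Cnn1, Myh11, Myocd and Srf, the 3 highest members of each class, members of mixed families and the 5 members with the smallest p, and of the other genes the 4 with the smallest p and the 2 highest.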

Additional observations from a re-analysis of the deposited data

How the results depend on the processing

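Alternatives were compared with the edgeR test on 6 libraries, under which 0 genes, 0 members and 0 other pathway genes were called (1976 genes had an unadjusted p under 0.05). DESeq2 called 225 of 11181 genes, 2 members and 1 other gene. With no filter on low counts, edgeR called 439 of 23197 genes, 2 members (Actg2, Zyx) and 2 other genes (Flnc, Sncg). Removal of the length trend, an alternative added after seeing the data, left 3 genes and 0 members called. RLE, upper quartile or library size scaling, limma-voom, a filter at 1 CPM, a non-robust fit and a replicate block gave 0. Leaving out each library gave 0 to 135 genes, 0 to 1 members and 0 to 1 other genes; the counts above 0 came without siArid3a library 2 (37), control library 2 (135) and control library 3 (94, with Zyx and Flnc). The causes were not tested.

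The fit with a replicate block gave log2 fold changes of 0.40 for Actg2 and 0.39 for Zyx (edgeR adjusted p = 0.346 and 0.327). Same-numbered libraries had correlations of deviations of 0.0296, −0.179 and −0.0848, and the other pairs ran from −0.063 to 0.146. These values gave no sign of pairing, but with 3 libraries per group they cannot exclude it.

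Over 35 members and 558 alternative values of the log2 fold change, 493 kept direction and side of the threshold, 5 became called and 60 changed sign, all uncalled. As 0 members were called at the outset, no call could be lost. Des, Tagln, Mylk, Myocd and Mrtfb, which had no DESeq2 adjusted p, were taken as uncalled there. Sign changes on all 6 libraries were these: with RLE, Des, Csrp1, Myh9 and Flna 0.00; with upper quartile and with library size scaling, Tagln2, Myl6 and Pdlim7 −0.01; with DESeq2, Des 0.03 and Csrp1, Myh9 and Flna 0.00; with limma-voom, Des 0.02; with no filter, Des 0.01 and Myl6 −0.00; with the replicate block, Des 0.05; with the length trend removed, Cnn1 0.03, Smtn 0.00, Des 0.02, Csrp1 0.04 and Flna 0.00. Members that changed sign when a library was left out ranged from −0.09 to 0.11 (Acta2), −0.02 to 0.10 (Actn1), −0.07 to 0.02 (Actn4), −0.16 to 0.07 (Cnn1), −0.01 to 0.10 (Cnn3), −0.06 to 0.04 (Csrp1), −0.21 to 0.04 (Csrp2), −0.32 to 0.34 (Des), −0.04 to 0.06 (Flna), −0.06 to 0.08 (Myh9), −0.09 to 0.12 (Myl6), −0.55 to 0.07 (Mylk), −0.02 to 0.05 (Pdlim7), −0.10 to 0.07 (Smtn), −0.03 to 0.12 (Srf), −0.03 to 0.02 (Tagln2), −0.16 to 0.03 (Tln1), −0.03 to 0.12 (Tpm2) and 0.00 to 0.04 (Tpm3).

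The median log2 level of late markers minus general genes, −5.59, was −6.19 with the longest transcript as length, −5.15 with the gene span, −5.92 with no length, −4.87 with a pseudocount of 1, −2.28 with the early and broad genes added, −7.10 with members at or over 90% (6 late, 12 general), −5.92 with exonic bases outside other listed genes, chosen after seeing the data, and −5.65 to −5.52 with a library left out. The fewest reads were those of Myh11, Mylk, Des, Myocd, Tagln and Mrtfb, with the widest intervals among those tested.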
